A study of Mus musculus with 32 samples.

Results

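Zfas1, Gas5, Snhg1, Snhg6, Snhg8 and Snhg12 are 6 small nucleolar RNA (snoRNA) host genes, taken by name from the 51510 annotated genes that could be summed in the data. Their levels were followed in 4 mouse tissues, namely liver, heart, skeletal muscle and brown adipose tissue (BAT), and were set against the 79 cytosolic ribosomal protein genes of the same libraries. RNA was sequenced from mice of a SMIM30 knockout line, labelled Mut, and from wild-type (WT) mice. All mice were male and of the C57BL/6J strain, the tissues were frozen in liquid nitrogen, and each of the 8 groups of tissue and genotype holds 4 libraries, 32 in all. The design text speaks of 4 individual mice per tissue and does not say whether 1 mouse gave several tissues. No source used here gives the kind of allele, the age of the mice or their litters.

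snoRNAs are short nuclear RNAs that guide the chemical modification of ribosomal RNA, 2'-O-methylation for those with boxes C and D and pseudouridylation for those with boxes H and ACA. In mammals most of them lie in introns of longer host transcripts and are released when the introns are removed. The spliced exons of many noncoding hosts begin with a terminal oligopyrimidine (TOP) stretch, the growth-regulated feature of ribosomal protein mRNAs, and are degraded by nonsense-mediated decay once they are translated. RNA sequencing of long transcripts therefore reads the exons of a host and not its snoRNAs.

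The members differ in what they carry. Zfas1, named for its place antisense to the start of Znfx1, lies on chromosome 2 (chr2:167062934-167065862, GRCm38, plus strand) and holds 3 snoRNA loci, all with boxes C and D. Gas5, the growth arrest-specific transcript that is also known to bind the glucocorticoid receptor, lies on chromosome 1 (chr1:161034422-161038539, plus strand) and holds 9. Snhg1 (chr19:8723475-8726443, plus strand) holds 8, among them Snord22. Snhg6 (chr1:9941959-9944118, minus strand) holds Snord87, and Snhg8 (chr3:123507552-123508404, minus strand) holds Snora24, which has boxes H and ACA. Snhg12 (chr4:132308623-132311024, plus strand) holds 4 loci of both classes, namely Snora16a, Snora44, Snora61 and Snord99.

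The Zfas1 snoRNAs are shown because Zfas1 was the member with the clearest difference between genotypes. Sequences and positions are those of GENCODE M21 on GRCm38, and capitals mark box C (TGATGA) and box D (CTGA), in that order. The 3 intronic snoRNAs of Zfas1, at chr2:167063473-167063565, chr2:167064998-167065086 and chr2:167065276-167065365 on the plus strand, are:
Gm25878: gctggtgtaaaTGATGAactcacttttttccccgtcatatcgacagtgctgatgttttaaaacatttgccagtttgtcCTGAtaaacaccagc
Gm23201: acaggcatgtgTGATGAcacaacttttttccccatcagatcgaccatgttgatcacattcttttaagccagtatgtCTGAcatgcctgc
Snord12: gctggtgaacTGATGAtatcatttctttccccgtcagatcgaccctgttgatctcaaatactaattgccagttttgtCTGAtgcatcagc

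The letters around the transcription starts are shown because the members varied together with ribosomal protein genes, whose starts carry TOP stretches. RefSeq (GRCm38.p6) lists a start for 5 of the 6 members, Gas5 with 2, and none for Snhg6. Each 40-base window below has 20 bases on either side of the start, on the strand of the gene, and capitals mark a run of at least 5 C or T letters that opens with C and begins within 10 bases of the start. The windows are chr1:161034581-161034620 and chr1:161035146-161035185 for Gas5, chr2:167062914-167062953 for Zfas1, chr3:123508317-123508356 for Snhg8 (minus strand), chr4:132308658-132308697 for Snhg12 and chr19:8723467-8723506 for Snhg1:
Gas5, upstream start: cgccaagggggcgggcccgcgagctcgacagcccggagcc
Gas5, downstream start: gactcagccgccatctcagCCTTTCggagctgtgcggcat
Zfas1: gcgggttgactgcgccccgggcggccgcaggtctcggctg
Snhg8: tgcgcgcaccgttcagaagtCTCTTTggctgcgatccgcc
Snhg12: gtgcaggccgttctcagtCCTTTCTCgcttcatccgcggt
Snhg1: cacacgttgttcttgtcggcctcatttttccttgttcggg
A run was found in 3 of these 6 windows, those of Gas5 (downstream start), Snhg8 and Snhg12. The same run stood in 37 of 68 windows of ribosomal protein genes (54.4%) and in 30.7% of 32851 windows of all genes. The search read the strand of the gene alone, and a window without a run says only that these letters are not there.

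The defining markers of each tissue were highest where the labels place them. Ucp1 averaged 2972 TPM in Mut and 3066 TPM in WT BAT and at most 63.3 TPM in any other group, and Myh6, Alb and Acta1 were likewise highest in heart, liver and skeletal muscle. None of them was absent elsewhere. Outside these tissues the group means ran from 58.6 to 80.5 TPM for Myh6, 547 to 769 TPM for Alb and 273 to 436 TPM for Acta1. The source of these levels was not tested. TPM is a transcript abundance per length, scaled to a fixed total in each library, so the depth of the libraries is unknown and precision was read from the spread between them. No annotated gene had the symbol Smim30, and 2610001J05Rik was taken to be it. It was present in Mut libraries at 17.3 to 33.0 TPM, against 18.6 to 37.6 TPM in WT libraries. In heart and muscle its Mut libraries lay below its WT libraries. In BAT and liver its level overlapped between genotypes, so that it does not check the labels there. Mitochondrially encoded genes took 40.7% to 54.5% of the TPM in Mut hearts and 41.2% to 43.7% in WT hearts, the highest share in Mut heart 2.

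**Figure D1:**
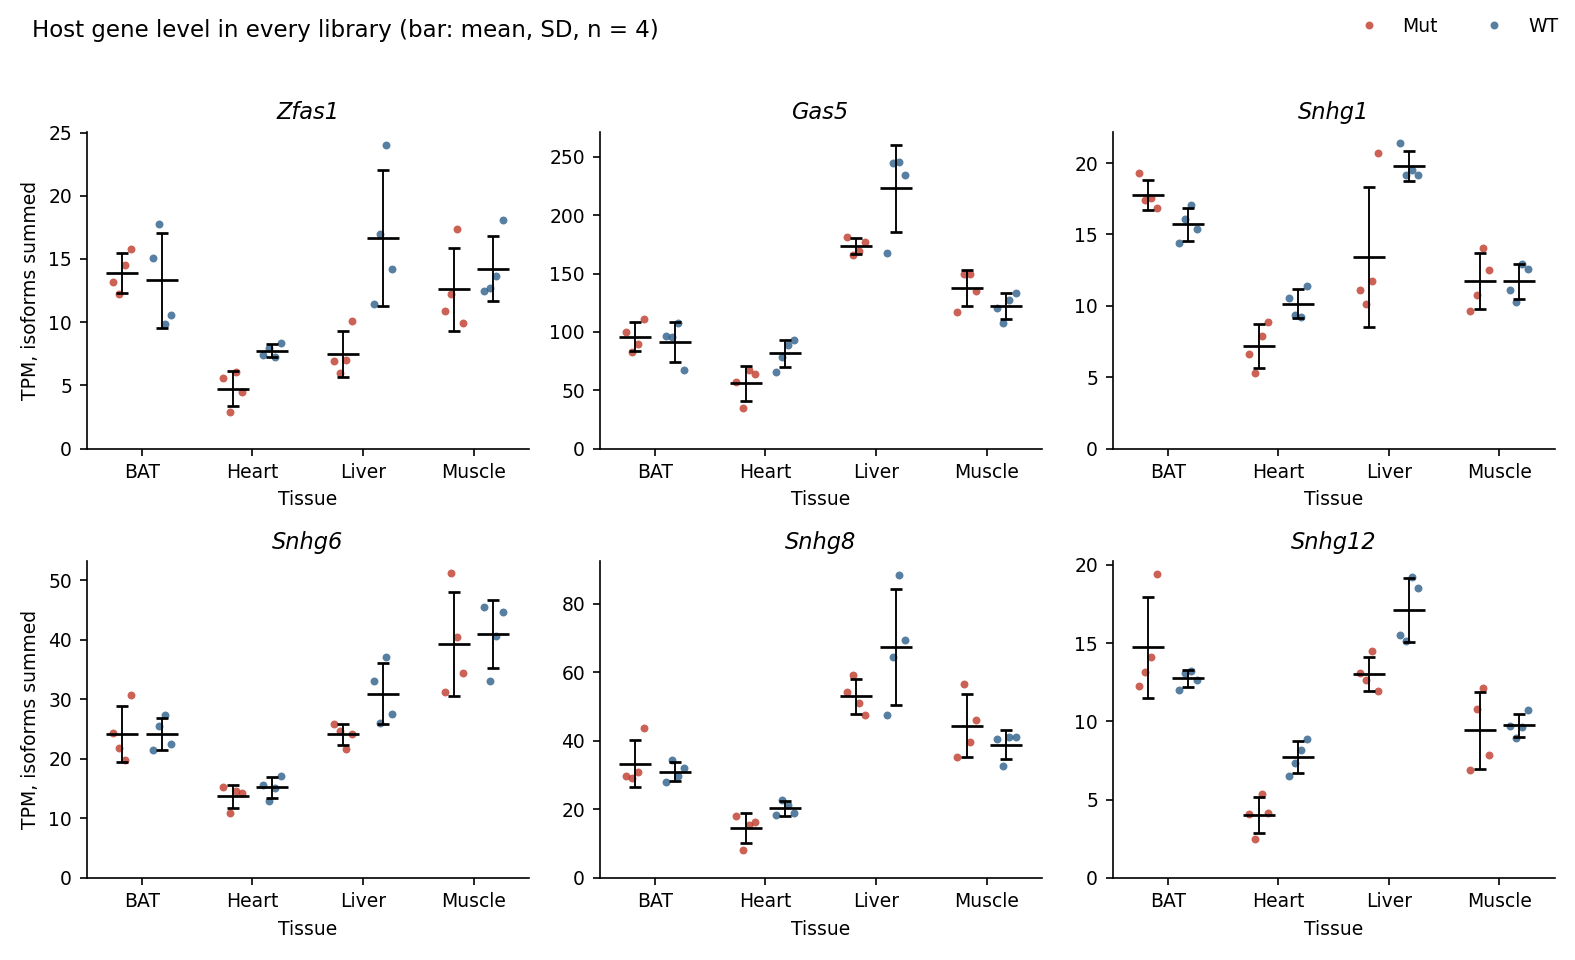
Level of each host gene (TPM, isoforms summed, linear axes from 0) in BAT, heart, liver and muscle. Each point is a library, and black bars give the mean and SD of 4 libraries. In liver the 4 Mut libraries of Zfas1 (5.95 to 10.1 TPM) sit below the 4 WT libraries (11.4 to 24.0 TPM), and in heart the Mut means of all 6 genes are below the WT means.

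In the liver Zfas1 fell by 55.0% in Mut mice, and the other 5 host genes had lower means as well without passing the test. Zfas1 read 6.90, 5.95, 7.04 and 10.1 TPM in Mut livers 1 to 4, against 11.4, 16.9, 24.0 and 14.2 TPM in WT livers 1 to 4. The highest Mut liver was below the lowest WT liver. The means were 7.50 ± 1.80 TPM in Mut and 16.6 ± 5.39 TPM in WT (SD, n = 4 each). The log2 fold change was -1.03 (SE 0.21, adjusted p = 0.0366), from limma on log2(TPM + 1) with Benjamini-Hochberg adjustment over all genes tested, where an adjusted p under 0.05 is a call. Over all liver genes 4.16% were called, and 0.384% were called with the lower level in Mut. The adjusted p of Zfas1 was 0.0972 with no filter on low values, and it lay between 0.0611 and 0.0999 without WT liver 2, 3 or 4 or without Mut liver 1, 2 or 3, where the fold change stayed between -1.08 and -0.85. The call remained without WT liver 1 or Mut liver 4.

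Gas5, the most abundant host, read 181, 166, 169 and 177 TPM in Mut livers 1 to 4, against 168, 245, 245 and 234 TPM in WT livers 1 to 4 (log2 fold change -0.35, SE 0.12, adjusted p = 0.122). WT liver 1 lay within the Mut values and the other WT livers above them, and without it the difference passed (-0.48, adjusted p = 0.0359). Without WT liver 1, 288 of 12048 genes were called. Snhg1 read 11.1, 10.2, 11.7 and 20.7 TPM in Mut livers 1 to 4, against 21.4, 19.1, 19.5 and 19.2 TPM in WT livers 1 to 4 (-0.58, SE 0.19, adjusted p = 0.0964). Mut liver 4 lay among the WT livers and the other Mut livers well below them. Without Mut liver 4 the difference of Snhg1 passed (-0.80, adjusted p = 0.00985), and 293 of 11915 genes were called.

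The other 3 hosts had log2 fold changes of -0.36 to -0.31 in liver. Snhg6 averaged 24.1 ± 1.75 TPM in Mut and 31.0 ± 5.15 TPM in WT livers, and Snhg12 13.0 ± 1.07 TPM in Mut and 17.1 ± 2.06 TPM in WT livers, in both cases with all Mut livers below all WT livers. Neither passed (adjusted p = 0.114 and 0.0681). Snhg8, the host of an H/ACA snoRNA, averaged 53.0 ± 5.02 TPM in Mut and 67.4 ± 16.9 TPM in WT livers, with overlapping groups (adjusted p = 0.261). The groups did not overlap, with Mut lower, for 3 of the 6 hosts in liver, while 2.12% of all liver genes showed this. At an unadjusted p under 0.05, 5 of the 6 were lower in Mut liver, against 4.46% of all liver genes.

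In the heart all 6 host genes had lower means in Mut mice, and none was called. Over all heart genes tested, 9700 of 12019 had a negative log2 fold change. When mitochondrial and the most abundant genes were left out of the scaling, 5 of the 6 hosts were lower and Snhg6 turned, again without a call. Snhg12 differed most. It read 4.11, 2.51, 5.33 and 4.16 TPM in Mut hearts 1 to 4, against 6.48, 7.37, 8.16 and 8.89 TPM in WT hearts 1 to 4 (log2 fold change -0.82, SE 0.16, adjusted p = 0.150). Zfas1 read 5.59, 2.89, 6.04 and 4.45 TPM in Mut hearts 1 to 4, against 7.38, 7.93, 7.23 and 8.35 TPM in WT hearts 1 to 4 (-0.64, SE 0.16, adjusted p = 0.339). For both genes every Mut heart was below every WT heart, and the same held for Snhg1 and Snhg8. Overlap was thus absent for 4 of the 6 hosts, against 7.21% of all heart genes with Mut lower.

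Snhg1 averaged 7.17 ± 1.56 TPM in Mut and 10.1 ± 1.01 TPM in WT hearts (log2 fold change -0.46). Snhg8 averaged 14.4 ± 4.35 TPM in Mut and 20.3 ± 2.11 TPM in WT hearts (-0.51), and Gas5 55.8 ± 14.8 TPM in Mut and 81.6 ± 11.9 TPM in WT hearts (-0.57). Snhg6, the host of Snord87, was nearest to its WT level, at 13.7 ± 1.95 TPM in Mut and 15.2 ± 1.74 TPM in WT hearts (-0.14). In heart 0.150% of genes were called. At an unadjusted p under 0.05, 5 of the 6 hosts were lower in Mut heart, against 11.1% of all heart genes.

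Mut heart 2 had the lowest level of all 6 hosts within its group. Without it the log2 fold changes in heart were -0.46 for Zfas1, -0.36 for Gas5, -0.34 for Snhg1, -0.04 for Snhg6, -0.28 for Snhg8 and -0.66 for Snhg12, and none was called. The atrial markers Myl7, Myl4, Sln and Nppa also differed between the groups, all 4 called, with a summed level of 22.2 to 87.6 TPM in Mut hearts and 326 to 3285 TPM in WT hearts. The 6 red blood cell markers summed to 3248 to 26215 TPM in Mut hearts and 3088 to 6408 TPM in WT hearts. The part of these differences in the host gene levels was not tested.

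In BAT and in skeletal muscle no host gene was called. A positive log2 fold change was seen for 8834 of 12150 genes tested in BAT. Of the 6 hosts there, 5 had a slightly higher and 1 a slightly lower mean in Mut. Their log2 fold changes ran from -0.02 for Snhg6 to 0.17 for Snhg12, at 14.7 ± 3.20 TPM in Mut and 12.7 ± 0.543 TPM in WT BAT. In muscle the log2 fold changes ran from -0.18 for Zfas1, at 12.6 ± 3.30 TPM in Mut and 14.2 ± 2.59 TPM in WT, to 0.17 for Gas5 and Snhg8. Gas5 read 117, 149.6, 149.98 and 135 TPM in Mut muscles 1 to 4, against 120.5, 108, 127 and 133 TPM in WT muscles 1 to 4. The lowest adjusted p of any host was 0.284 in BAT and 0.707 in muscle, and none of the 6 reached an unadjusted p under 0.05 in either tissue, against 19.5% of all genes in BAT and 7.76% in muscle. Among all genes 0% were called in BAT and 0.00850% in muscle, and the groups did not overlap, with Mut lower, for 1.65% of genes in BAT and 0.663% in muscle, but for none of the hosts.

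The effect of genotype on Snhg12, Zfas1 and Snhg1 differed between the tissues. This was tested in 1 limma model over all 32 libraries, taken as independent because which of them share a mouse is not known. The interaction of tissue and genotype passed the F test for Snhg12 (F = 8.00, adjusted p = 0.0233), Zfas1 (F = 6.10, adjusted p = 0.0470) and Snhg1 (F = 6.01, adjusted p = 0.0480). It did not pass for Gas5 (adjusted p = 0.0780), Snhg8 (0.150) or Snhg6 (0.556), and 5.87% of all genes passed. The Mut effect on Snhg12 was 0.99 higher in BAT than in heart on the log2 scale (SE 0.21, adjusted p = 0.0130). That on Zfas1 was 1.12 higher in BAT than in liver (SE 0.28, adjusted p = 0.0293), and that on Snhg1 0.75 higher in BAT than in liver (SE 0.21, adjusted p = 0.0418). With a pseudocount of 0.1 those of Zfas1 (adjusted p = 0.0502) and Snhg1 (0.0522) did not pass. The interaction of Snhg12 was lost without WT heart 4 (adjusted p = 0.0549) and held without each of the other 31 libraries. That of Zfas1 held without 10 of the 32 libraries and that of Snhg1 without 5, with adjusted p between 0.0259 and 0.0896 and between 0.00258 and 0.0879.

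**Figure D2:**
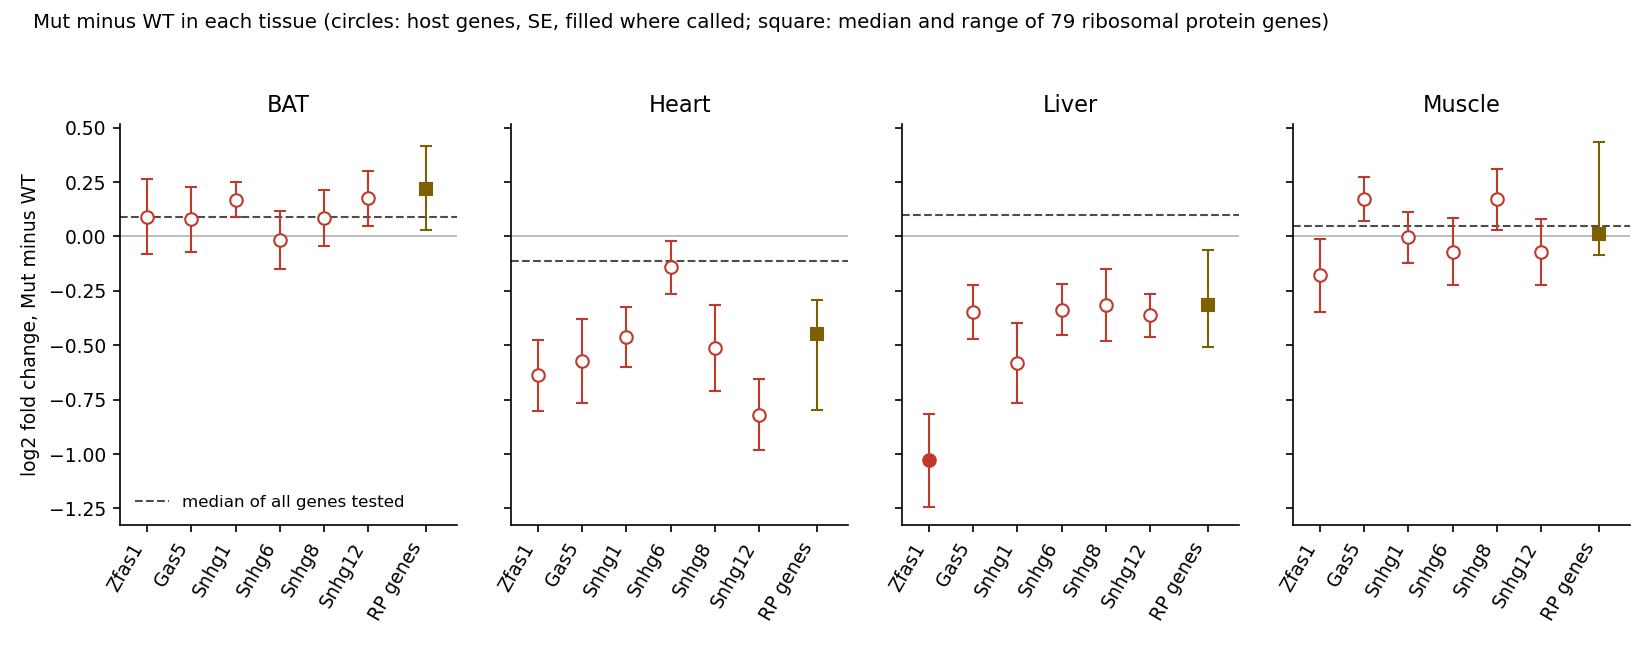
Log2 fold change (Mut minus WT) of the 6 host genes in each tissue, as circles with the SE, filled where called, beside the median (square) and range (line) of the 79 ribosomal protein genes. The dashed line is the median of all genes tested. In heart and liver the host genes lie below the median of all genes. Zfas1 (-1.03) and Snhg1 (-0.58) in liver and Snhg12 (-0.82) in heart lie below the range of the ribosomal protein genes, and Snhg6 (-0.14) in heart lies above it. Zfas1 (-0.18) in muscle and Snhg6 (-0.02) in BAT also lie below the range of their tissue.

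In heart and liver the host genes had the direction of the ribosomal protein genes of the same libraries. In liver all 79 ribosomal protein genes were lower in Mut, with a median log2 fold change of -0.31, and 1 fell, Rpl35, a protein of the large subunit (102 ± 5.23 TPM in Mut and 138 ± 17.7 TPM in WT, adjusted p = 0.0464). In heart all 79 were lower (median -0.45), in BAT all 79 were higher (0.22), and in muscle 53 were higher and 26 lower (0.01), where median-ratio scaling left 72 lower. With that scaling 8 were lower in BAT. The medians of the 6 hosts were -0.35 in liver, -0.54 in heart, 0.09 in BAT and -0.04 in muscle, against 0.10, -0.11, 0.09 and 0.05 over all genes tested in these tissues. Ribosomal protein TPM summed to 21078 to 22751 in Mut livers and 21428 to 32505 in WT livers. In heart it summed to 10834 to 19331 in Mut and 21340 to 24120 in WT. Reads of ribosomal protein genes can be shared with their many pseudogenes. In bulk tissue, fewer cells of a type and less RNA per cell cannot be told apart.

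Scaling bears on these directions. Median-ratio scaling moved the median log2 fold change of all genes to 0.00 in heart, -0.02 in liver, -0.02 in BAT and -0.01 in muscle. The 6 hosts then had medians of -0.41 in heart, -0.49 in liver, -0.03 in BAT and -0.10 in muscle. They were lower in Mut in 6 of 6 cases in heart and liver, and in 4 of 6 in BAT, where the direction of the group thus turned. With median-ratio scaling Gas5 (-0.48, adjusted p = 0.0487) and Snhg12 (-0.49, adjusted p = 0.0479) fell in liver beside Zfas1. That scaling called 307 of 11980 liver genes.

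Zfas1 in liver was the 1 host gene called relative to the ribosomal protein genes of its own library. The quantity is log2(TPM + 1) minus the mean log2(TPM + 1) of the 79 ribosomal protein genes. For Zfas1 it was -4.81, -5.06, -4.81 and -4.42 in Mut livers 1 to 4, against -4.20, -3.93, -3.76 and -4.32 in WT livers 1 to 4. All Mut livers were below all WT livers, and the difference was -0.72 (SE 0.17, adjusted p = 0.00987). It stayed called under every alternative tried, the leaving out of each liver library included, between -0.84 and -0.62. Relative to the ribosomal proteins 55.5% of liver genes were called, nearly all of them higher in Mut, and 0.258% were called lower. The share of all genes whose genotypes did not overlap on this relative scale was not counted in any tissue.

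As a share, Zfas1 amounted to 0.0343% ± 0.00723 of the summed ribosomal protein TPM in Mut livers and 0.0602% ± 0.0112 in WT livers (SD, n = 4 each). The other 5 hosts differed in liver by -0.27 to -0.00 relative to the ribosomal proteins and none of them was called. For Gas5 the difference was -0.03 (SE 0.11), and its share was 0.796% ± 0.0431 in Mut and 0.819% ± 0.0777 in WT. Snhg1 passed without Mut liver 4 (-0.47, adjusted p = 0.0492). There 4668 of 11915 genes were called in either direction, and how many of these were lower in Mut was not counted.

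In heart no host was called relative to the ribosomal proteins, although 14.2% of all genes were, and 0.183% with the lower level in Mut. Snhg12 was lower in every Mut heart than in any WT heart (difference -0.35, SE 0.15, adjusted p = 0.0746) and passed without Mut heart 2 (-0.38, adjusted p = 0.0282). Without that heart 4790 of 12082 genes were called in either direction, and how many of these were lower in Mut was not counted. Snhg6 was higher in every Mut heart than in any WT heart (0.32, SE 0.15, adjusted p = 0.0831). How many of all genes separate in this way was not counted. For Zfas1, Gas5, Snhg1 and Snhg8 the differences in heart ran from -0.17 to 0.00. In BAT the differences of the 6 hosts ran from -0.23 to -0.04, with 2.59% of all genes called and no host. In muscle Gas5 was higher in every Mut than in any WT library (0.16, SE 0.06, adjusted p = 0.970), no host was called, and 0.00850% of all genes were. At an unadjusted p under 0.05, relative to the ribosomal proteins, 1 host was lower in Mut BAT, against 23.0% of all genes, and in liver 1, Zfas1, was lower, against 0.334%. In heart Snhg12 was lower, against 0.308% of all genes, and Snhg6 higher, against 53.5%. In muscle Gas5 was higher, against 4.23%.

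**Figure D3:**
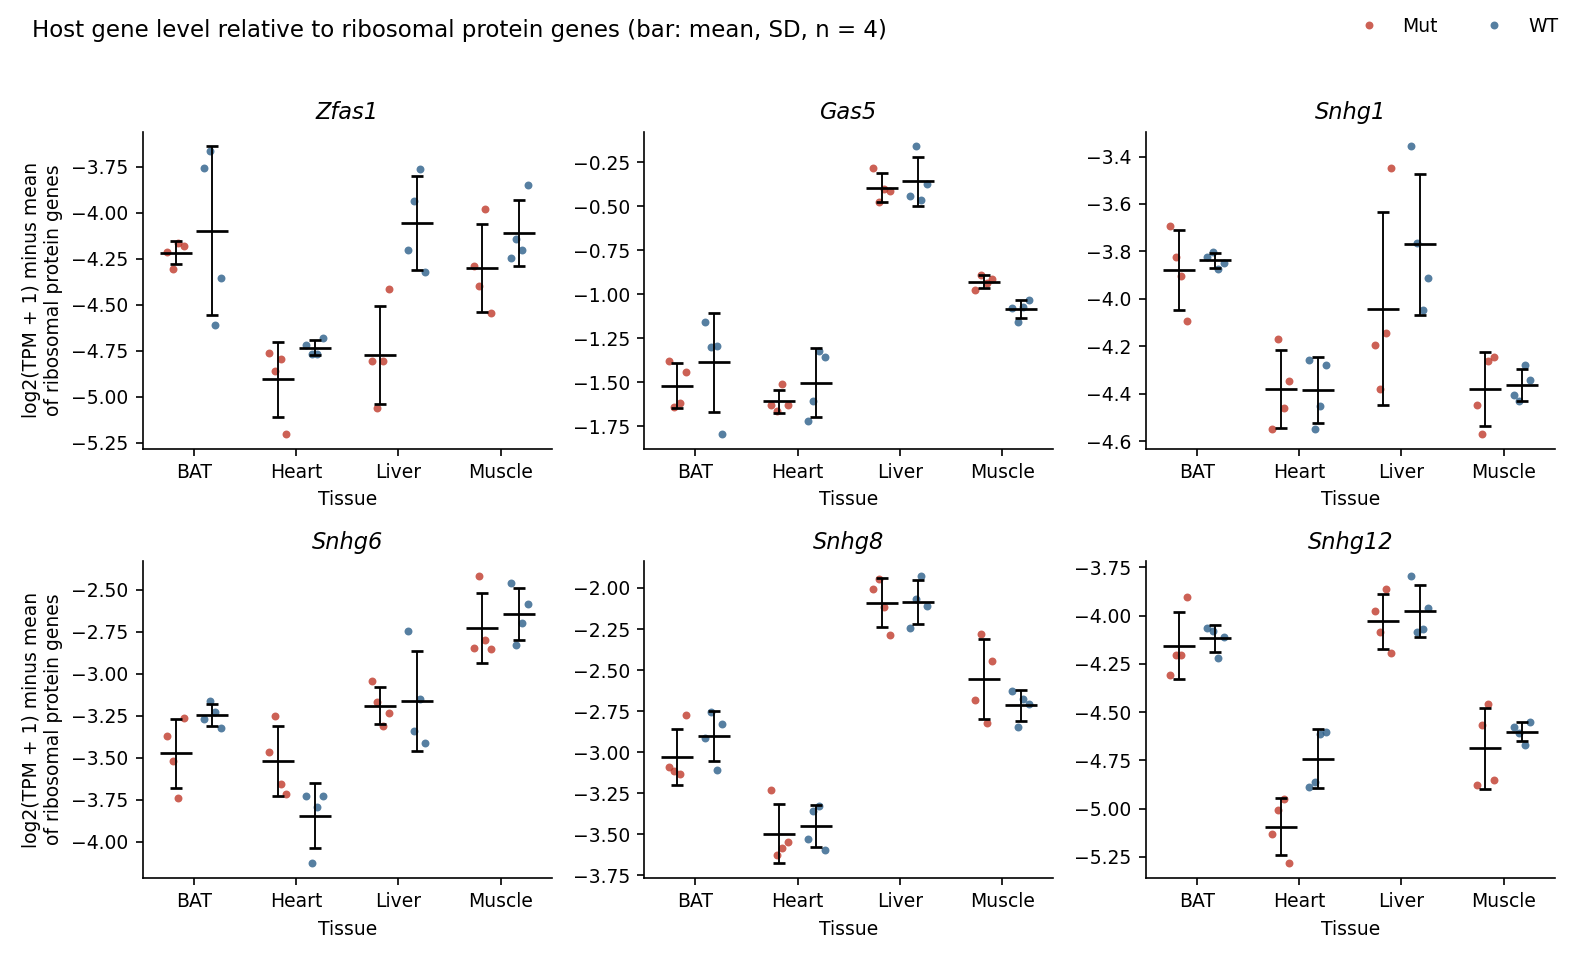
Level of each host gene relative to the ribosomal protein genes of its library, as log2(TPM + 1) minus their mean, in each tissue. Points are libraries, black bars the mean and SD of 4 libraries, and the axes do not start at 0. Zfas1 in liver shows -5.06 to -4.42 in Mut and -4.32 to -3.76 in WT libraries, while the other host genes overlap between genotypes in liver.

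The isoforms of the host genes gave no call in any tissue. Isoforms that held at least 5% of their gene in at least 1 group were 20 in number, and 9 to 11 of them reached a mean of 1 TPM in a tissue. In all transcripts tested, 0% were called in BAT, 0.0330% in heart, 0.104% in liver and 0.00935% in muscle. At an unadjusted p under 0.05, 5 of 9 isoforms were lower in Mut heart, against 8.19% of all transcripts, and 5 of 10 in Mut liver, against 4.79%. None of the isoforms passed in BAT or muscle, against 13.6% and 6.48% of all transcripts in either direction. The lowest adjusted p was 0.102. Without Mut liver 4, Snhg1-211 (-0.95) and Snhg6-204 (-1.42) passed, both at an adjusted p of 0.0432. Of all transcripts, 33 of 23856 were called then.

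Most of Zfas1 lay on Zfas1-205, a spliced transcript of 5 exons that spans none of its snoRNAs. It held 89.9% ± 4.02 of Zfas1 TPM in Mut livers and 85.6% ± 6.00 in WT livers, and its level was 6.79 ± 1.97 TPM in Mut and 14.1 ± 4.27 TPM in WT (log2 fold change -0.95, SE 0.22, adjusted p = 0.102). All Mut livers were below all WT livers for this isoform, and likewise for Snhg1-211 and Snhg12-206. How many of all transcripts separate in this way was not counted. Zfas1-201, a retained-intron transcript that spans a snoRNA, was listed at 0 in every Mut liver and at 0.264 to 1.83 TPM in WT livers. Zfas1-203, another retained-intron transcript, was also listed at 0 in every Mut liver and at 0 to 1.33 TPM in WT livers. It was also at 0 in every Mut library of BAT and muscle, where 1 WT library of each tissue was above 0. Zfas1-204, which also spans a snoRNA, did not share this pattern, at 0.702 ± 0.171 TPM in Mut livers and 0.621 ± 0.228 TPM in WT livers. In the other tissues Zfas1-201 was listed above 0 in both genotypes, for example at 0.674 ± 0.270 TPM in Mut hearts and 0.747 ± 0.505 TPM in WT hearts. Its lowest library was at 0 in WT heart, WT muscle and both genotypes of BAT. Zfas1-201, Zfas1-203 and Zfas1-204 averaged under 1 TPM in both genotypes of liver and were not tested there.

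Gas5 was divided among 3 main isoforms, and their shares followed the tissue. Gas5-224 and 1 other transcript of the table hold a 41-base exon, 5 more cover the same stretch within longer exons, and Gas5-210 and Gas5-209 lack it. It lies at chr1:161037124-161037164 (GRCm38, plus strand). It is shown because it sets the main isoforms apart. Capitals mark the exon, and lower case 12 bases of the neighbouring exons on either side in the spliced Gas5-224:
Gas5 alternative exon: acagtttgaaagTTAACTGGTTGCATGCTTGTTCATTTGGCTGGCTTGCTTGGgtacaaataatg
These 7 transcripts held 58.1% ± 4.25 of Gas5 TPM in Mut BAT and 60.7% ± 1.55 in WT BAT. In heart they held 39.4% ± 7.08 in Mut and 36.8% ± 8.03 in WT, in liver 44.8% ± 4.98 in Mut and 38.0% ± 6.35 in WT, and in muscle 29.5% ± 1.44 in Mut and 30.6% ± 3.67 in WT (SD, n = 4 each). The libraries of BAT, at 53.1% or more, did not overlap with those of any other tissue, and the genotypes overlapped within every tissue.

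**Figure D4:**
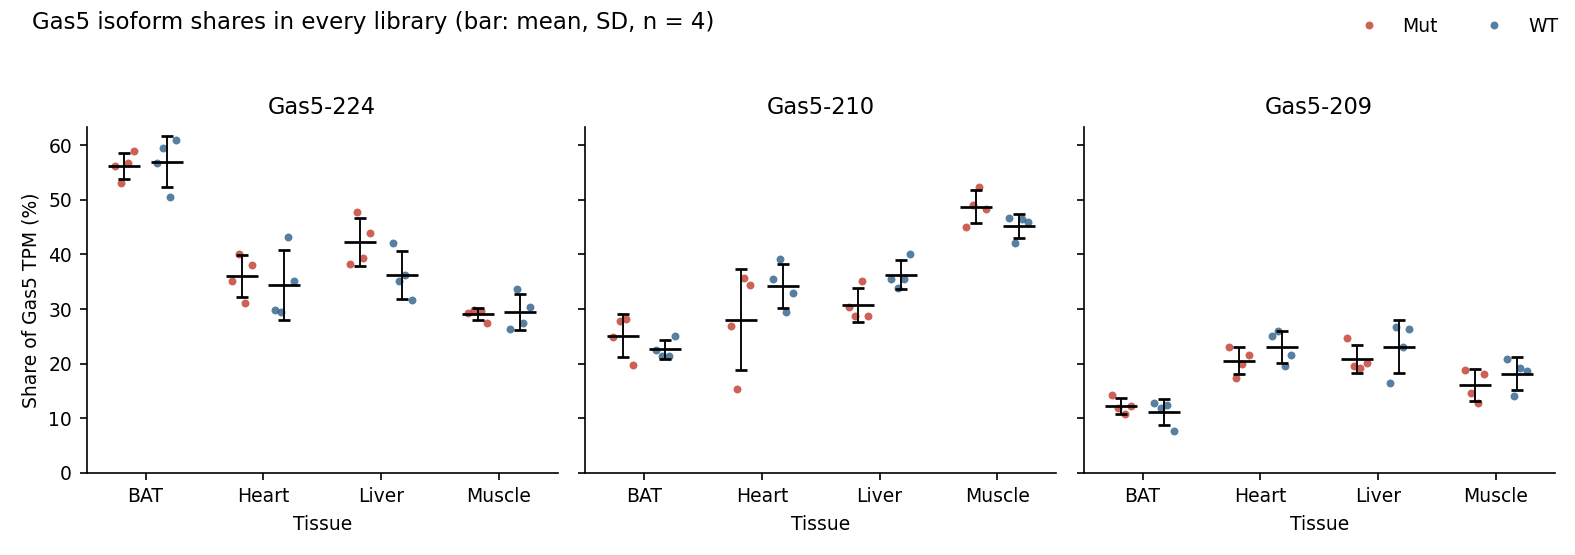
Share of Gas5 TPM (%) on its 3 main isoforms in each tissue. Points are libraries and black bars the mean and SD of 4 libraries. Gas5-224 takes 53.1% to 58.9% in Mut BAT and 50.6% to 61.1% in WT BAT, while Gas5-210 takes the largest share in muscle, 48.7% ± 3.02 in Mut and 45.3% ± 2.15 in WT.

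In liver the lower Gas5 level of Mut mice lay on Gas5-210, at 53.3 ± 5.20 TPM in Mut and 80.9 ± 14.9 TPM in WT (log2 fold change -0.58, adjusted p = 0.115), and on Gas5-209, at 36.3 ± 5.84 TPM in Mut and 52.8 ± 17.3 TPM in WT (-0.47, adjusted p = 0.379). Gas5-224 read 73.2 ± 6.17 TPM in Mut and 79.9 ± 8.86 TPM in WT livers (-0.12, adjusted p = 0.555). Whether these isoforms differ from each other in their response was not tested. Snhg1-211, which held 82.9% ± 7.55 of Snhg1 in Mut and 92.8% ± 1.17 in WT livers, read 11.1 ± 4.20 TPM in Mut and 18.4 ± 1.16 TPM in WT (-0.73, adjusted p = 0.137). In heart Snhg12-206, the main Snhg12 isoform, read 3.08 ± 0.659 TPM in Mut and 5.64 ± 0.959 TPM in WT (-0.71, adjusted p = 0.344).

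Across WT tissues, in TPM as deposited, all 6 hosts had their lowest mean in heart, and all except Snhg6 their highest in liver. Gas5 averaged 223 ± 37.1 TPM in liver, 122 ± 10.9 in muscle, 91.5 ± 17.3 in BAT and 81.6 ± 11.9 in heart (SD, n = 4 each). Snhg8 averaged 67.4 ± 16.9, 38.9 ± 4.15, 31.0 ± 2.81 and 20.3 ± 2.11 TPM in the same order. Snhg6 was highest in muscle, at 41.0 ± 5.67 TPM, before liver at 31.0 ± 5.15, BAT at 24.2 ± 2.68 and heart at 15.2 ± 1.74 TPM.

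Snhg1 averaged 19.8 ± 1.06 TPM in liver, 15.7 ± 1.15 in BAT, 11.7 ± 1.26 in muscle and 10.1 ± 1.01 in heart. Snhg12 averaged 17.1 ± 2.06 TPM in liver, 12.7 ± 0.543 in BAT, 9.75 ± 0.735 in muscle and 7.72 ± 1.04 in heart, and Zfas1 16.6 ± 5.39 TPM in liver, 14.2 ± 2.59 in muscle, 13.3 ± 3.76 in BAT and 7.72 ± 0.514 in heart. Of the 36 pairs of tissues over the 6 genes, 30 were called by limma, with the libraries again taken as independent. The neighbours that did not differ beyond their spread were BAT, liver and muscle for Zfas1, BAT and heart for Gas5 (adjusted p = 0.385), heart and muscle for Snhg1 (0.0690), and BAT and muscle for Snhg8 (0.0562). The call of Snhg6 between BAT and liver was lost without BAT WT 1 or 4 or liver WT 1 or 3 (adjusted p = 0.0622 to 0.0970), and that of Gas5 between BAT and muscle without BAT WT 4 (0.0691). Without single libraries a call was gained for Snhg8 between BAT and muscle (BAT WT 2, liver WT 1 or 3, or muscle WT 2), for Snhg1 between heart and muscle (heart WT 4 or muscle WT 2) and for Zfas1 between BAT and liver (liver WT 1). The background of such calls was high, at 63.2% of genes between BAT and heart, 72.4% between BAT and liver, 73.6% between BAT and muscle, 79.2% between heart and liver, 64.8% between heart and muscle and 80.1% between liver and muscle.

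The order changed with the scaling of the libraries. Mitochondrial transcripts took on average 42.0% of the TPM in WT heart and 11.7% in WT liver. When libraries were scaled with mitochondrial genes and the 10 most abundant ones left out, BAT minus liver turned to 0.40 for Snhg1 (adjusted p = 0.000145), 0.39 for Snhg6 (0.00483) and 0.31 for Snhg12 (0.00167). Heart minus muscle turned to 0.22 for Snhg1 (0.0160) and, without a call, to 0.10 for Snhg12, so these 2 genes were then no longer lowest in heart. With this scaling 24 of the 36 pairs were called. The share of all genes called between tissues with this scaling was not counted. Among the calls lost were heart minus liver for Zfas1 (-0.18, adjusted p = 0.386), Snhg1 (-0.10, 0.226) and Snhg6 (-0.15, 0.239). Heart minus muscle was lost for Zfas1 (-0.39, 0.0831) and Gas5 (-0.14, 0.364), and BAT minus muscle for Gas5 (-0.09, 0.551). Gas5 and Snhg8 stayed called higher in liver than in the other tissues, with Gas5 at 0.44 in liver minus muscle (adjusted p = 0.00652) and Snhg8 at 0.35 (0.0229). As a share of the summed ribosomal protein TPM, Gas5 took 0.819% ± 0.0777 in WT liver, 0.470% ± 0.0180 in muscle, 0.399% ± 0.0716 in BAT and 0.360% ± 0.0492 in heart.

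The snoRNAs themselves were nearly absent from these libraries. Of the 26 snoRNA entries of the 6 hosts in the table, 24 were listed at 0 in every library. Snord22 of Snhg1 was listed above 0 in 1 library, WT muscle 2, at 2.84 TPM. Snord99 of Snhg12 was listed above 0 in 10 libraries, 7 of them from heart, at up to 8.73 TPM. Isoforms that span a snoRNA held a small part of most hosts, for example 10.1% ± 4.02 of Zfas1 in Mut livers and 9.37% ± 2.95 in WT livers, and 3.26% ± 1.74 of Gas5 in Mut livers and 1.91% ± 1.18 in WT livers.

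Beside the 6 members, 17 other noncoding snoRNA hosts were listed, of which 12 could be tested in liver. In liver 2 of them fell. Epb41l4aos, an antisense host gene, averaged 11.8 ± 2.08 TPM in Mut and 22.5 ± 4.56 TPM in WT (log2 fold change -0.87, SE 0.15, adjusted p = 0.0248). Snhg5 averaged 2.11 ± 0.395 TPM in Mut and 4.78 ± 1.81 TPM in WT (-0.85, SE 0.20, adjusted p = 0.0492). The median of the 12 was 0.04, with 6 lower and 6 higher, beside a median of 0.10 over all liver genes tested. In heart 8 of 9 were lower with a median of -0.24, beside 9700 of 12019 over all heart genes tested. None was called there, in BAT (13 tested) or in muscle (9 tested).

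The genes around the host pathway gave no call in limma in any tissue. They comprised 18 protein-coding snoRNA hosts, 16 proteins that build snoRNA particles, 18 factors of nonsense-mediated decay, 18 regulators of TOP mRNAs and mTORC1, and 19 ribosome biogenesis factors. At an unadjusted p under 0.05, between 0 and 4 genes of a list were past the threshold in a tissue, against 19.5% of all genes in BAT, 11.6% in heart, 25.9% in liver and 7.76% in muscle. In liver the medians of these lists were -0.02, 0.05, 0.03, 0.05 and 0.00 in that order, where the members had -0.35. In heart they were -0.13, -0.08, -0.10, -0.10 and -0.10, where the members had -0.54 and all genes -0.11.

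Markers of other cell types also differed between genotypes. All 10 macrophage markers had higher means in Mut liver, where 8277 of 11994 genes tested had a positive log2 fold change. Of these markers Cd68, a lysosomal protein of macrophages, rose (8.02 ± 2.09 TPM in Mut and 3.32 ± 1.54 TPM in WT, adjusted p = 0.0380). The 10 summed to 192 to 521 TPM in Mut livers and 82.3 to 286 TPM in WT livers, and 11 lymphocyte markers to 6.02 to 23.6 TPM in Mut and 2.95 to 6.80 TPM in WT. No marker of these lists was at 0 in all libraries of a group. Of 7 cell cycle genes tested in liver 5 rose, against 453 of 11994 liver genes called higher. In BAT, where no marker was called in limma, all 8 macrophage markers tested were higher in Mut at an unadjusted p under 0.05, against 17.2% of all genes, and so were all 5 red blood cell markers tested. The 10 macrophage markers summed to 391 to 508 TPM in Mut and 76.5 to 401 TPM in WT BAT, and the 6 red blood cell markers to 4081 to 6221 TPM in Mut and 2096 to 3864 TPM in WT BAT. In muscle 7 of 8 macrophage markers tested were higher at that p, against 6.33% of all genes, none was called, and the sums were 89.9 to 122 TPM in Mut and 63.2 to 82.7 TPM in WT. The part of these cells in the host gene and ribosomal protein levels, and in the differences between tissues, was not tested.

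Some members overlap other genes. The labels call the libraries strand-specific, but no source used here says whether strand was used in the quantification, so reads of Zfas1 and of Znfx1 on the opposite strand may not be told apart. Znfx1 averaged 14.9 ± 0.912 TPM in Mut and 11.6 ± 0.690 TPM in WT livers, the reverse of the order of Zfas1. Zbtb37, which overlaps Gas5, averaged 1.89 ± 0.144 TPM in Mut and 1.54 ± 0.172 TPM in WT livers, and Mcmdc2, which overlaps Snhg6, at most 0.0733 TPM in any group.

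The genes most like each host, by Pearson's r of log2(TPM + 1) over 32 libraries after the mean of each tissue was taken off, included ribosomal protein genes for 4 of the 6. They are a description without a test, and the libraries share their scaling and composition. Among the genes most like Snhg8 were Rpl34 (r = 0.89) and Rps18 (0.88), and among those most like Gas5 were Rps23 (0.88) and Sdf2 (0.88). Snhg12 was most like Rabac1 (0.89), Stk11 and Rpl13, and Snhg1 was most like Serpine2 (0.80), Rps24 and Cfap20. Zfas1 was most like Slc25a33 (0.84), a mitochondrial carrier of pyrimidine nucleotides, Znrd1 and Fxyd1, and Snhg6 like Zfp768 (0.78), Slc25a28 and Csnk2b. The median r with the ribosomal protein genes ran from 0.54 for Snhg6 to 0.83 for Gas5 and Snhg8, and the median r with all genes from 0.05 for Zfas1 to 0.28 for Gas5.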

How the data were processed

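The deposited values are transcript TPM from Salmon, per the submitters' processing notes. No source used here gives the version of Salmon or the transcriptome it read. Of 147493 transcripts, 136081 (92.26%) matched GENCODE M21 identifiers with version numbers ignored, and their deposited TPM values were summed to 51510 genes. Unmatched transcripts held 0.451% to 0.896% of a library, and 11480 to 12431 genes reached 1 TPM. TPM keeps no read totals, so depth is unknown.

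Each tissue was fitted with limma 3.58.1 (R 4.3.3, mean-variance trend, two-sided) on log2(TPM + 1), for genes or transcripts averaging 1 TPM or more in its 8 libraries. The pseudocount makes fold changes of low genes smaller. Relative levels subtracted the mean of 79 ribosomal protein genes in each library and were fitted for all genes. The procedure was tested on simulated data. Groups and replicate numbers came from the titles. Replicate numbers did not pair the libraries, and p-values measure the spread between libraries.

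The members and gene lists were chosen with earlier results of these data known. Named genes are the members, up to 4 called genes of a list per tissue, isoforms with at least 5% of their gene, and the 3 genes most like each member, of which some are not reported here. Alternatives were a pseudocount of 0.1, no filter, a filter of 5 TPM, median-ratio scaling, a scaling that leaves out mitochondrial genes and the 10 most abundant ones, no trend, the replicate block, 1 fit over all libraries, summed ribosomal protein TPM, genes at 1 TPM in any tissue, and leaving out each library. Not every alternative was run for every result. Figures were drawn with Matplotlib 3.10.9.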

Additional observations from a re-analysis of the deposited data

Results flagged for a closer look

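In 4 of the 48 groups of 4 libraries, 1 library lay far from the other 3, and chance flags about 1 in 20 groups. Snhg1 read 20.7 TPM in Mut liver 4, against 10.2 to 11.7 TPM in the other Mut livers. Snhg8 read 43.6 TPM in Mut BAT 4, against 29.2 to 30.8 TPM in the other Mut libraries of BAT. Gas5 read 167.9 TPM in WT liver 1, against 234 to 245 TPM in the other WT livers. Snhg8 read 32.7 TPM in WT muscle 2, against 40.4 to 41.2 TPM in the other WT muscles.

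The effect of genotype differed between tissues by the interaction test for Zfas1 (F = 6.10), Snhg1 (F = 6.01) and Snhg12 (F = 8.00). With a pseudocount of 0.1 only Snhg12 of the 3 passed.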

How the results depend on the processing

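The call of Zfas1 in liver relative to the ribosomal proteins held under the 12 alternatives tried for it. The changed scalings, the filter of 5 TPM, the fit without trend and 1 fit over all libraries were not run on the relative levels. At gene level the number of hosts called in liver was 0 with no filter on low values, 3 with median-ratio scaling, 2 with 1 fit over all libraries and 0 with the replicate block, where Zfas1 had adjusted p = 0.0687. Over all liver genes 35 of 26437, 307 of 11980, 1902 of 11994 and 126 of 11994 were called, in that order. The replicate numbers did not pair the libraries, since the same-numbered Mut and WT libraries deviated together at r = -0.25 to 0.14, and 1 of the 16 Mut libraries matched best the WT library with its own number. In heart 1 host was called with 1 fit over all libraries (Snhg12, adjusted p = 0.00407), where 166 of 12019 genes were called. Of the isoforms, 1 in heart and 2 in liver were called with 1 fit over all libraries. Over all transcripts that fit called 130 of 21193 in heart and 2401 of 24054 in liver. The interaction was called for 1 host, Snhg12, with a pseudocount of 0.1, where Zfas1 (adjusted p = 0.0502) and Snhg1 (0.0522) lost the call. That setting called 483 of 10109 genes.

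Leaving out each library gave 0 to 2 hosts called in liver, 1 to 2 in liver and 0 to 1 in heart relative to the ribosomal proteins, 0 to 2 isoforms in liver and 0 to 4 interactions. Over all liver genes the calls ran from 22 of 12025 without WT liver 3 to 390 of 12016 without WT liver 2, and no host was called in either case. For the other counts such totals are given above for some libraries or not at all. Some differences that were not called changed sign without 1 library. The log2 fold changes in BAT ran from -0.13 to 0.069 for Snhg6, -0.029 to 0.23 for Zfas1, -0.064 to 0.16 for Gas5 and -0.048 to 0.14 for Snhg8. In muscle they ran from -0.089 to 0.077 for Snhg1, -0.20 to 0.029 for Snhg6 and -0.19 to 0.050 for Snhg12. Relative to the ribosomal proteins the ranges in BAT were -0.29 to 0.024 for Zfas1, -0.12 to 0.015 for Snhg12 and -0.10 to 0.029 for Snhg1, and for Snhg1 -0.067 to 0.059 in heart and -0.064 to 0.045 in muscle. In liver they were -0.11 to 0.11 for Snhg6, -0.11 to 0.0094 for Snhg12, -0.072 to 0.032 for Gas5 and -0.055 to 0.064 for Snhg8. The isoform Snhg8-202 ran from -0.44 to 0.030 in liver. In WT, Zfas1 ran from -0.26 to 0.0066 for BAT minus muscle and from -0.0048 to 0.33 for liver minus muscle.

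With median-ratio scaling the BAT fold changes turned to -0.029 for Zfas1, -0.049 for Gas5 and -0.039 for Snhg8, and WT BAT minus heart to -0.019 for Gas5. With mitochondrial and the most abundant genes left out of the scaling, Snhg6 in heart turned to 0.0079. WT differences then turned to 0.41, 0.21 and -0.21 for Zfas1 (BAT minus liver, BAT minus muscle, liver minus muscle), 0.40 and 0.22 for Snhg1 (BAT minus liver, heart minus muscle), 0.39 for Snhg6 (BAT minus liver), 0.018 for Snhg8 (BAT minus muscle), and 0.31 and 0.10 for Snhg12 (BAT minus liver, heart minus muscle). With a pseudocount of 0.1, Snhg1 in heart relative to the ribosomal proteins turned to -0.042. The cause of these shifts was not tested. Each value for a single gene or isoform was compared with its main result under several alternatives that leave out no library. Of these comparisons, 570 kept the direction and side of the threshold, while 9 gained and 10 lost a call and 15 changed sign. Depth is unknown in TPM, so differences of genes at a few TPM rest on the spread between 4 libraries.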
